A study of Mus musculus with 6 samples.

Results

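The genes described here are the interleukins, the secreted messengers that leukocytes and stromal cells use to signal to each other, and the receptors that read them. They were taken by name, as every gene of the count table whose symbol opens with Il and a digit, which gave 83 of 48440 genes. By function, 39 were ligands, 41 were receptor chains or decoy receptors, and 3 were neither (Il18bp, a secreted binding protein, Il4i1, an amino acid oxidase, and Il1bos, an antisense transcript). A gene was tested where it had at least 10 counts in 3 or more of the 6 samples. That left 46 of the 83 members (14 ligands, 31 receptors and Il18bp) among 15115 tested genes.

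RNA came from the murine tissue around BEC, cartilage engineered from bone marrow stem cells of rabbits on PLGA scaffolds. The BEC had been wrapped in electrospun PCL/collagen membranes and implanted under the skin of BALB/c nude mice. By the paper's methods, the samples were harvested with mouse tissue entangled, and the reads were mapped to the mouse genome. RNA of the rabbit cells may thus have entered the libraries. Rabbit reads that were counted on mouse genes cannot be told apart here. In the 3%-Axitinib group (3 samples) the membrane held 3% axitinib by weight, an inhibitor of VEGF receptor kinases, and in the 0%-Axitinib group (3 samples) it held 0%. All samples were taken at 12 weeks, from male mice that were young adults at implantation. The labels call the 0%-Axitinib samples untreated controls, and they were read as that group because the design text names only the 0% and the 3% group. Nude mice lack a thymus, so they make few T cells, while B cells, NK cells and myeloid cells are present. A pair of constructs of the same group was placed in each mouse while the animal behind each sample is not named. Samples of a group may thus share an animal. The spread between them may be partly a spread within animals, and standard errors and P-values may then be too small.

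Most interleukin receptors are built from chains that are shared between ligands. The common gamma chain, Il2rg, serves the receptors for several lymphocyte growth factors, and Il6st (gp130) serves the relatives of interleukin 6, all of them signalling through JAK kinases and STAT factors. Receptors of the interleukin 1 family instead signal through Myd88 and the IRAK kinases, and are held in check by a receptor antagonist, decoy receptors and a binding protein. Around an implanted biomaterial, interleukin 1 and its relatives are known for early inflammation, and interleukins 4 and 13 for the alternative activation of macrophages.

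Reads counted on genes numbered 17761968, 16716411 and 18005908 in the 0%-Axitinib samples and 9225518, 11686084 and 18403795 in the 3%-Axitinib samples (replicates 1, 2 and 3 of each, the order used throughout). Levels are given as CPM, read counts scaled to a common library size with TMM. On that scale 3 counts, used as the limit of detection for counting error only, came to between 0.156 and 0.33 CPM. Unmapped reads made up 5.47%, 3.84% and 14.9% of the 0%-Axitinib libraries and 48.4%, 29.2% and 16.8% of the 3%-Axitinib libraries, so depth and mapping differed between the groups, and their part in the results was not tested.

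A member was called higher or lower in the 3%-Axitinib group by a criterion of a fold change of at least 1.5 together with an unadjusted P no higher than 0.05 in the quasi-likelihood method of edgeR. The limits of 1.5 and 0.05 are those of the study, which gives the second as a P-value and names no adjustment. The method was chosen here, and the P-value was read here as unadjusted. Of 14 tested ligands, 4 were lower and 0 higher, and of 31 tested receptors, 8 were lower and 4 higher. Among all 15115 tested genes, 11.8% were lower and 9.54% higher by the same criterion. The lower ligand Il27 and the lower receptor Il9r passed the count filter only through the 0%-Axitinib samples, so their lower calls were favoured by it. With Il18bp, 17 of 46 members met the criterion, 13 lower and 4 higher. The median log2 fold change was -0.19 over the tested ligands and -0.25 over the tested receptors, against -0.03 over all tested genes. Without 0%-Axitinib replicate 3 the medians were -0.028 for ligands and -0.28 for receptors, and the difference between the classes was not tested. Groups did not overlap, with every 3%-Axitinib sample below every 0%-Axitinib sample, for 2 ligands, 7 receptors and Il18bp, against 16.7% of all tested genes. Every 3%-Axitinib sample was above every 0%-Axitinib sample for 0 ligands and 5 receptors, against 14.6% of all tested genes. In this bulk tissue, fewer cells of a type and less RNA per cell cannot be told apart.

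Once P was adjusted over the whole table, edgeR left 0 of 46 members at or under an adjusted p of 0.05, against 0.00662% of all genes (1 gene). At an unadjusted P of at most 0.05, edgeR found 18 of 46 members and 3563 of 15115 genes. The DESeq2 Wald test gave 13 members at an adjusted p of at most 0.05, against 13% of all genes, and limma-voom gave 0. Leaving out 0%-Axitinib replicate 3 gave 6 members in edgeR, and 1556 genes in all.

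**Figure D1:**
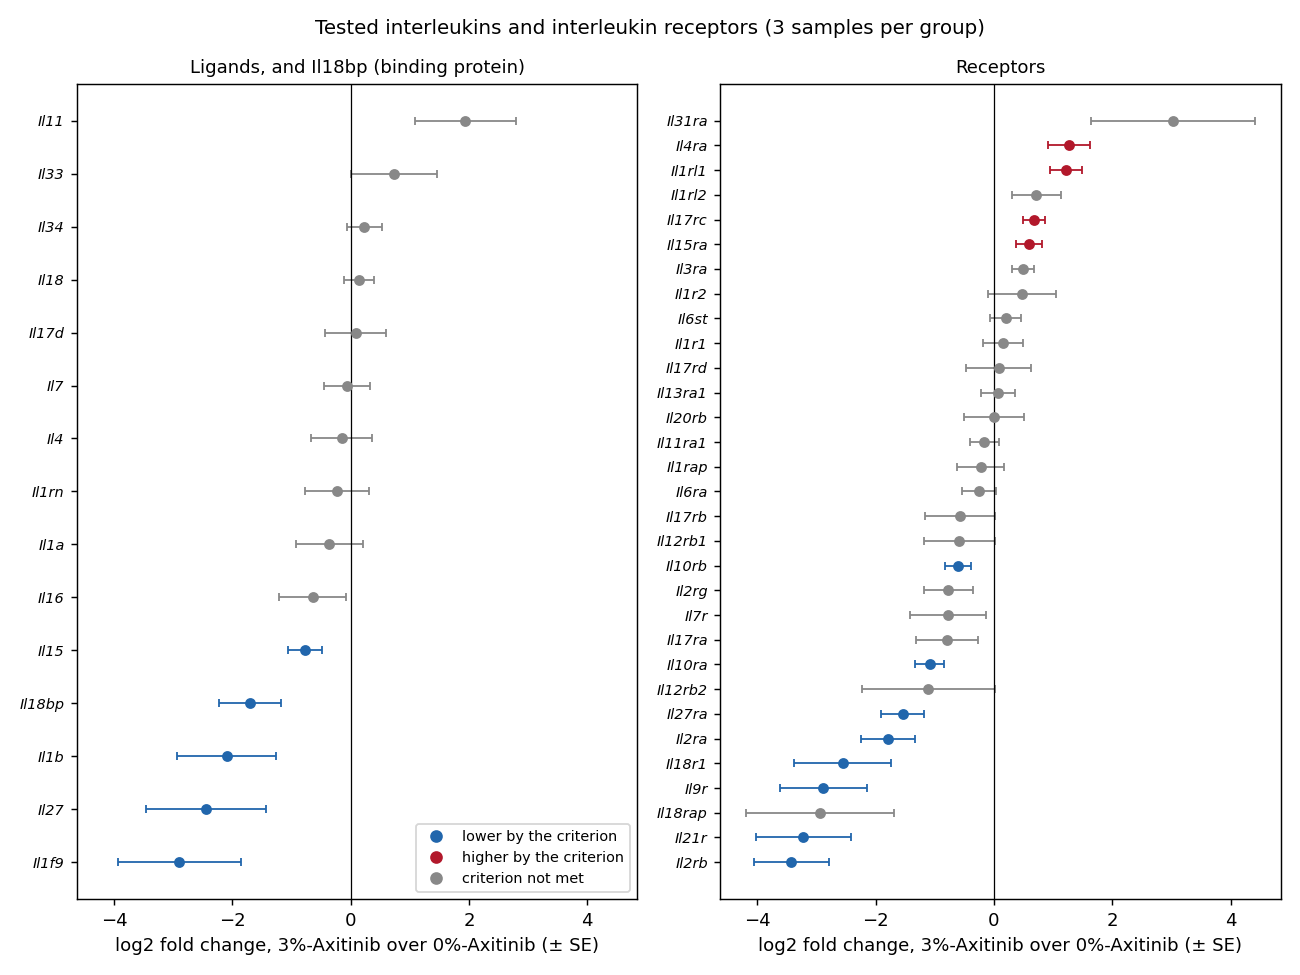
Log2 fold change of each of the 46 tested members, 3%-Axitinib over 0%-Axitinib, with bars of the standard error (3 samples per group), ligands and Il18bp on the left and receptors on the right. Blue marks the 13 members lower by the criterion, red the 4 that were higher, all of them receptors, and grey those that did not meet it.

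Of the ligands, 25 of 39 had too few counts to be tested, and 7 of them had no read in any sample (Il3, Il9, Il17a, Il20, Il22, Il31 and Il1f10). The lymphocyte products Il2, Il5, Il13, Il17f and Il21 had at most 4 counts in any sample. Il6, a central cytokine of acute inflammation, had 5, 3 and 30 counts in the 0%-Axitinib samples and 8, 1 and 1 counts in the 3%-Axitinib samples. Il10, which restrains inflammation, had 14, 6 and 44 counts against 6, 9 and 6. Both were highest in 0%-Axitinib replicate 3, and the other samples of the groups overlapped. The highest count among untested members was 86, for Il1f5 (the antagonist of the interleukin 36 receptor) in 0%-Axitinib replicate 2, with 0 in every other sample. The keratinocyte marker list summed to 961 CPM in that same library and to between 4.84 and 10.3 CPM in the others, and its part was not tested.

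Among the ligands of the interleukin 1 family, 2 of 6 tested were lower by the criterion, beside 11.8% of all tested genes. Il1b (chromosome 2, 129364570 to 129371139, GRCm38), the inflammatory cytokine that caspase-1 processes, was measured at 10.7, 3.37 and 32.2 CPM at 0% axitinib and 4.28, 5.0 and 1.62 CPM at 3% (log2 fold change -2.10 ± 0.84, SE, edgeR adjusted p = 0.193). Il1f9 (chromosome 2, 24186476 to 24193568), the gene of interleukin 36 gamma, was measured at 2.24, 5.05 and 36.4 CPM at 0% axitinib and 1.32, 2.73 and 1.79 CPM at 3% (log2 fold change -2.90 ± 1.04, SE, edgeR adjusted p = 0.163). For both genes 0%-Axitinib replicate 3 was far above the other samples, and the remaining samples of the groups overlapped. With that library left out, the value was -0.97 on the log2 scale for Il1b and -0.90 for Il1f9, and neither met the criterion. The 10 neutrophil markers summed to 80.8, 89.8 and 33380 in the 0%-Axitinib samples and 189, 138 and 72.5 in the 3%-Axitinib samples (CPM), so 0%-Axitinib replicate 3 stood apart there as well. S100a9 was the most abundant of that list, and 9 of its 10 genes were tested, 5 of them lower. Ly6g, a defining marker, was at 0.468, 0 and 501 CPM against 0.11, 0.091 and 0 CPM. The part of these cells in the values of Il1b and Il1f9 was not tested.

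The other ligands of this family did not meet the criterion. Il33, an alarmin of the nucleus and the ligand of Il1rl1, was measured at 83.6, 42.1 and 16.8 CPM at 0% axitinib and 94.7, 121 and 22.3 CPM at 3% (log2 fold change 0.74 ± 0.73, SE). Il18, which caspase-1 also processes, was measured at 8.79, 8.71 and 9.53 CPM at 0% axitinib and 9.01, 11.8 and 8.95 CPM at 3% (log2 fold change 0.14 ± 0.25, SE). Il1a, the second agonist of Il1r1, was measured at 0.728, 1.39 and 1.46 CPM at 0% axitinib and 0.769, 0.455 and 1.5 CPM at 3% (log2 fold change -0.36 ± 0.57, SE). In each of these 3 genes the groups overlapped. Il1a shares 11.2% of its exon bases with a transcript on the other strand, and whether counting used the strand is not given in the sources used here, so those reads cannot be told apart.

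Il15 (chromosome 8, 82331632 to 82403222), which sustains NK cells and memory T cells, was measured at 10.5, 18.2 and 14 CPM at 0% axitinib and 8.79, 7.64 and 8.66 CPM at 3% (log2 fold change -0.77 ± 0.29, SE, edgeR adjusted p = 0.173). All 3%-Axitinib samples were below all 0%-Axitinib samples, and 0%-Axitinib replicate 2 was the highest. Il27 (chromosome 7, 126589010 to 126594941), the p28 subunit that pairs with Ebi3, was measured at 0.624, 0.813 and 2.98 CPM at 0% axitinib and 0.439, 0 and 0.346 CPM at 3% (log2 fold change -2.45 ± 1.01, SE, edgeR adjusted p = 0.204). The groups did not overlap, but the counts were low (12, 14 and 55 counts against 4, 0 and 6), and 10.1% of the exon bases of Il27 lie in Apobr on the other strand. Il27 passed the count filter only through the 0%-Axitinib samples, so a lower call was favoured. In the fits that left out 1 sample its value ranged from -2.87 to -1.42 on the log2 scale, closest to 0 without 0%-Axitinib replicate 3, and Il27 and Il15 each met the criterion in 2 of 6. Without 0%-Axitinib replicate 3, 1 ligand was lower by the criterion, and without 3%-Axitinib replicate 1, 2 or 3 in turn, 0 ligands were.

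Il34, a second ligand of the receptor Csf1r that macrophages depend on, was measured at 59.4, 29.4 and 34.1 CPM at 0% axitinib and 42, 45.2 and 57.1 CPM at 3% (log2 fold change 0.23 ± 0.30, SE). Its log2 fold change ranged from 0.042 to 0.60 over the fits that left out 1 sample. Without 0%-Axitinib replicate 1 it met the criterion as higher. Il16, whose product attracts cells bearing CD4, was measured at 15.8, 14.5 and 62.9 CPM at 0% axitinib and 21.2, 18.6 and 19.9 CPM at 3% (log2 fold change -0.64 ± 0.57, SE). The groups overlapped in both, and for Il16 0%-Axitinib replicate 3 lay above the other 5 samples. Il16 also shares 15.3% of its exon bases with Stard5 on the other strand. Il11, which acts on stromal cells through Il11ra1 and Il6st, had the highest log2 fold change of a tested ligand (1.94 ± 0.86, SE). It did not meet the criterion in edgeR but did in DESeq2 and limma-voom, and it is named after its values were seen. It was measured at 0.832, 0.638 and 0.0542 CPM at 0% axitinib and 2.75, 0.819 and 2.37 CPM at 3%, and the groups overlapped because 3%-Axitinib replicate 2 was below 0%-Axitinib replicate 1.

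Of the inhibitors of the family, Il1rn, the receptor antagonist, was measured at 155, 311 and 92 CPM at 0% axitinib and 129, 89.3 and 258 CPM at 3% (log2 fold change -0.23 ± 0.54, SE). Il1r2, the decoy receptor that binds interleukin 1 without signalling, was measured at 52.9, 22.5 and 29 CPM at 0% axitinib and 79.8, 16.5 and 48.7 CPM at 3% (log2 fold change 0.47 ± 0.57, SE). The groups overlapped in both, and for Il1rn the samples within each group lay far apart. Il18bp (chromosome 7, 102014885 to 102018690), whose product binds and neutralizes interleukin 18, was measured at 9.26, 9.23 and 28.9 CPM at 0% axitinib and 4.28, 4.0 and 6.23 CPM at 3% (log2 fold change -1.70 ± 0.53, SE, edgeR adjusted p = 0.134). All 3%-Axitinib samples were below all 0%-Axitinib samples, of which replicate 3 was the highest. Il18bp met the criterion in each of the 6 fits that left out 1 sample, and the value with 0%-Axitinib replicate 3 left out was -0.92 on the log2 scale.

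Of the 8 receptors that were lower, 4 belong to the family of the common gamma chain. Of its 9 tested receptors (those of interleukin 13 included), 4 were lower and 2 higher, beside 11.8% lower and 9.54% higher among all tested genes, with a median log2 fold change of -0.78. Among the lower ones, Il9r passed the count filter only through the 0%-Axitinib samples, so a lower call was favoured. Il2rb (chromosome 15, 78479256 to 78495271), the signalling chain shared by the receptors of interleukins 2 and 15, was measured at 6.08, 13.6 and 31.6 CPM at 0% axitinib and 1.76, 1.64 and 1.39 CPM at 3% (log2 fold change -3.42 ± 0.63, SE, edgeR adjusted p = 0.0957). Every 3%-Axitinib sample was below every 0%-Axitinib sample, and the 3%-Axitinib samples lay close together. Il2ra (chromosome 2, 11642807 to 11693193), the chain that gives the interleukin 2 receptor its high affinity, was measured at 3.64, 2.15 and 4.01 CPM at 0% axitinib and 1.21, 0.637 and 0.981 CPM at 3% (log2 fold change -1.79 ± 0.45, SE, edgeR adjusted p = 0.103). Il21r (chromosome 7, 125603429 to 125633570), which B cells, T cells and NK cells carry, was measured at 4.58, 3.71 and 21.7 CPM at 0% axitinib and 0.659, 1.09 and 1.39 CPM at 3% (log2 fold change -3.23 ± 0.80, SE, edgeR adjusted p = 0.10). The groups did not overlap in either, and 0%-Axitinib replicate 3 was the highest for Il21r. Il9r (chromosome 11, 32187541 to 32200279), a receptor of mast cells and lymphocytes, was measured at 1.35, 2.26 and 2.92 CPM at 0% axitinib and 0.659, 0.091 and 0.173 CPM at 3% (log2 fold change -2.89 ± 0.74, SE, edgeR adjusted p = 0.104), again without overlap, at counts of at most 54. Its counts were 26, 39 and 54 against 6, 1 and 3, so only the 0%-Axitinib samples reached the 10 counts of the filter.

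Each of these 4 chains met the criterion in all 6 fits that left out 1 sample, but with sizes that varied. For Il9r this rests on keeping the genes that passed the filter over all 6 samples. With the filter applied again to the samples left, Il9r was tested and called in 3 of 6 fits. The log2 fold change ranged over these fits from -3.83 to -2.63 for Il2rb, -2.02 to -1.58 for Il2ra, -3.62 to -1.95 for Il21r and -3.91 to -2.47 for Il9r, and for Il2rb and Il21r it was closest to 0 without 0%-Axitinib replicate 3. Il2rg, the common gamma chain itself, was measured at 24.5, 19.3 and 48.6 CPM at 0% axitinib and 15.9, 13 and 25.2 CPM at 3% (log2 fold change -0.77 ± 0.42, SE), with overlapping groups. Because 30.5% of its exon bases also belong to the annotated gene Gm20489 on the same strand, its reads are uncertain. Il2rg met the criterion as lower with the replicate number as a block and without 0%-Axitinib replicate 2. Il7r, the receptor for interleukin 7, was measured at 160, 357 and 44.1 CPM at 0% axitinib and 109, 99.6 and 119 CPM at 3% (log2 fold change -0.78 ± 0.65, SE). Its 0%-Axitinib samples spread on both sides of the 3%-Axitinib samples. Without 0%-Axitinib replicate 3 it met the criterion as lower (log2 fold change -1.24).

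The other lower receptors included Il10ra, Il10rb and Il27ra. Il10ra (chromosome 9, 45253837 to 45269149), the ligand-binding chain for interleukin 10 on leukocytes, was measured at 88.3, 107 and 108 CPM at 0% axitinib and 37.7, 42.2 and 63 CPM at 3% (log2 fold change -1.09 ± 0.24, SE, edgeR adjusted p = 0.0968). Il10rb (chromosome 16, 91406164 to 91425834), the partner chain that most cells carry, was measured at 106, 134 and 83.8 CPM at 0% axitinib and 74.9, 69.3 and 68.1 CPM at 3% (log2 fold change -0.61 ± 0.22, SE, edgeR adjusted p = 0.163). Il27ra (chromosome 8, 84030294 to 84042589), which pairs with Il6st, was measured at 17.4, 23.9 and 17.3 CPM at 0% axitinib and 6.81, 4.0 and 9.18 CPM at 3% (log2 fold change -1.55 ± 0.36, SE, edgeR adjusted p = 0.0972). In all 3 genes every 3%-Axitinib sample was below every 0%-Axitinib sample. Il10ra and Il27ra met the criterion in all 6 fits that left out 1 sample (log2 fold changes of -1.34 to -0.94 and -1.86 to -1.28), and Il10rb in 1 of them. Il10rb also shares 14.9% of its exon bases with the annotated gene Gm21970 on the same strand.

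The pair of chains that bind interleukin 18 was highest in 0%-Axitinib replicate 3. Il18r1 (chromosome 1, 40465552 to 40500854) was measured at 1.66, 4.88 and 14.3 CPM at 0% axitinib and 1.76, 1.0 and 0.808 CPM at 3% (log2 fold change -2.56 ± 0.82, SE, edgeR adjusted p = 0.137). Its neighbour Il18rap (chromosome 1, 40515362 to 40551705), the accessory chain, was measured at 2.03, 5.11 and 71.5 CPM at 0% axitinib and 3.74, 3.73 and 2.77 CPM at 3% (log2 fold change -2.94 ± 1.25, SE, edgeR adjusted p = 0.213) and did not meet the criterion. The groups overlapped in both. With 0%-Axitinib replicate 3 left out, the value was -1.48 on the log2 scale for Il18r1 and -0.07 for Il18rap. Il18r1 met the criterion in 4 of the 6 fits that left out 1 sample, not without 3%-Axitinib replicate 2 or 3, and Il18rap in 2. DESeq2 gave an adjusted p of 0.0179 for Il18r1 and 0.0386 for Il18rap.

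**Figure D2:**
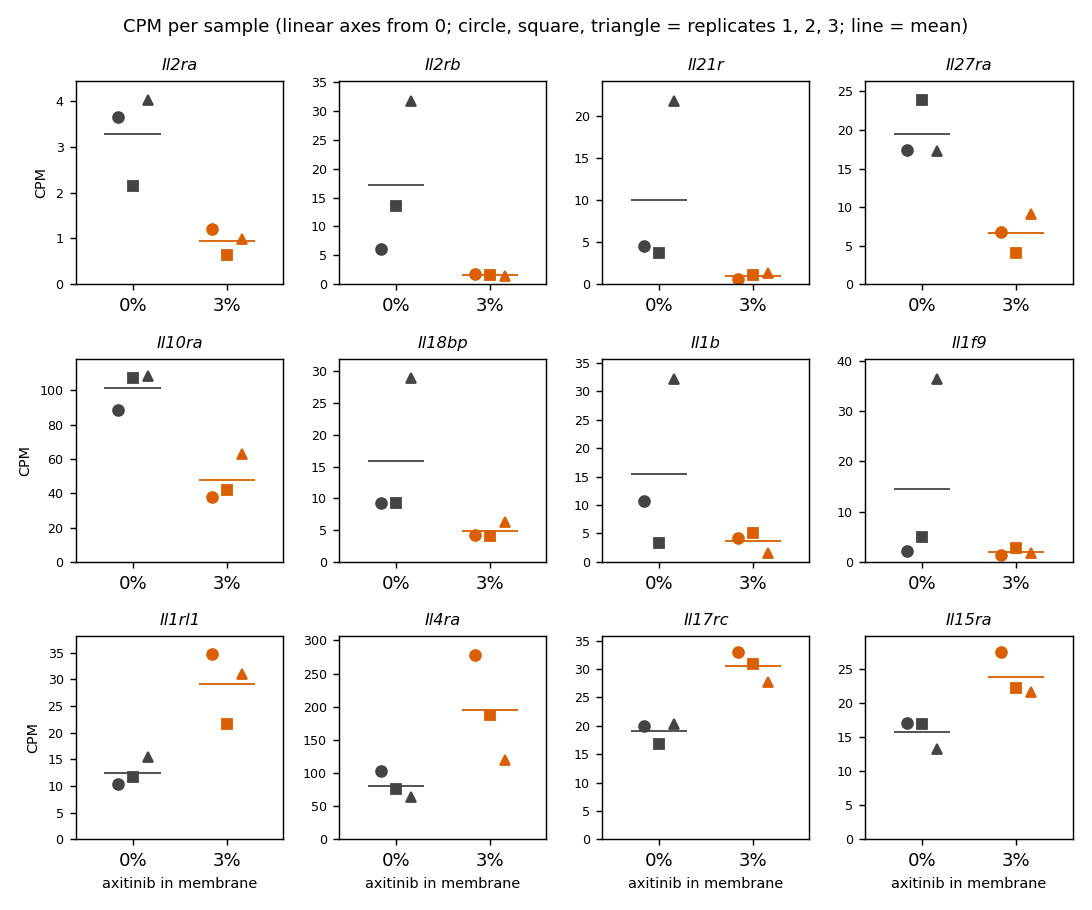
CPM in each sample for members that met the criterion, on linear axes that start at 0, with the 0%-Axitinib samples on the left and the 3%-Axitinib samples on the right of each panel, a symbol for each replicate and a line at the mean. Il2ra, Il2rb, Il21r, Il27ra, Il10ra and Il18bp separate downwards, Il1rl1, Il4ra, Il17rc and Il15ra upwards, and Il1b and Il1f9 overlap apart from 0%-Axitinib replicate 3.

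The 4 receptors that were higher were Il4ra, Il1rl1, Il17rc and Il15ra. Il4ra (chromosome 7, 125552120 to 125579474), the chain shared by the receptors of interleukins 4 and 13, was measured at 103, 76.4 and 63.3 CPM at 0% axitinib and 278, 187 and 119 CPM at 3% (log2 fold change 1.27 ± 0.36, SE, edgeR adjusted p = 0.117). Il1rl1 (chromosome 1, 40429570 to 40465415), the receptor of interleukin 33, also called ST2, was measured at 10.3, 11.7 and 15.5 CPM at 0% axitinib and 34.7, 21.6 and 31.1 CPM at 3% (log2 fold change 1.22 ± 0.27, SE, edgeR adjusted p = 0.0968). In both genes all 3%-Axitinib samples were above all 0%-Axitinib samples, and 3%-Axitinib replicate 1 was the highest. Il17rc (chromosome 6, 113471427 to 113483140), which pairs with Il17ra to bind interleukin 17, was measured at 20, 16.8 and 20.3 CPM at 0% axitinib and 33, 30.8 and 27.7 CPM at 3% (log2 fold change 0.68 ± 0.19, SE, edgeR adjusted p = 0.119). Il15ra (chromosome 2, 11705290 to 11734317), which presents interleukin 15 to neighbouring cells, was measured at 17, 16.9 and 13.2 CPM at 0% axitinib and 27.4, 22.2 and 21.5 CPM at 3% (log2 fold change 0.59 ± 0.22, SE, edgeR adjusted p = 0.173). The groups did not overlap in either of these. Il4ra, Il1rl1 and Il17rc met the criterion in all 6 fits that left out 1 sample (log2 fold changes of 0.92 to 1.52, 1.08 to 1.40 and 0.60 to 0.74), and Il15ra in 0. With total counts in place of TMM, Il17rc and Il15ra did not meet it. A transcript on the other strand shares 9.51% of the exon bases of Il4ra.

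Of the ligands of these receptors, Il33 had a log2 fold change of 0.74 ± 0.73 (SE), with 0.28 to 1.43 over the fits that left out 1 sample, and did not meet the criterion, Il4 had -0.15 ± 0.51 (SE) at no more than 48 counts in a sample and did not meet it either, and Il15 was lower. Il13, Il17a and Il17f had too few counts to be tested.

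Several abundant receptors did not meet the criterion. Il6st was measured at 389, 279.9 and 278 CPM at 0% axitinib and 436, 328 and 322 CPM at 3% (log2 fold change 0.20 ± 0.26, SE). Il11ra1, which binds interleukin 11, was measured at 175, 176 and 136 CPM at 0% axitinib and 144, 114 and 177 CPM at 3% (log2 fold change -0.16 ± 0.24, SE). Its near copy Il11ra2 had no read counted. Reads that mapped to several places were not counted on genes, so reads shared by both copies may be missing. Il1r1, the signalling receptor for interleukin 1, was measured at 68.7, 53.3 and 36.4 CPM at 0% axitinib and 74.8, 64.5 and 36.5 CPM at 3% (log2 fold change 0.15 ± 0.34, SE). In these 3 genes the groups overlapped. Il3ra, the interleukin 3 chain, was measured at 81.8, 82.2 and 80.2 CPM at 0% axitinib and 100.1, 111 and 134 CPM at 3% (log2 fold change 0.50 ± 0.19, SE). Its 3%-Axitinib samples were all above its 0%-Axitinib samples, with a fold change under 1.5. Without 3%-Axitinib replicate 1 it met the criterion as higher (log2 fold change 0.59). The 15 tested members outside the rule for values per sample, Il11 among them, had log2 fold changes between -1.11 (Il12rb2) and 3.03 (Il31ra), and 0 of them met the criterion in the main edgeR fit. A gene on the other strand, Serbp1, shares 40% of the exon bases of Il12rb2. Il1rl2, the interleukin 36 receptor, met the criterion as higher (log2 fold change 1.27) without 0%-Axitinib replicate 1. Il31ra had 9, 12 and 0 counts in the 0%-Axitinib samples and 53, 1 and 65 in the 3%-Axitinib samples, and it met the criterion as higher in DESeq2, with no filter beyond 1 count and without 3%-Axitinib replicate 2.

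Levels of different genes were compared as CPM per kb of exon. On this scale the tested ligands of highest mean level over both groups were Il1rn (33.6 and 28.6 CPM per kb in the 0%- and 3%-Axitinib groups), Il34 (20.9 and 24.6) and Il33 (16.5 and 27.5). Their order differed between samples of both groups, with Il33 above Il1rn in 0%-Axitinib replicate 1 and 3%-Axitinib replicates 1 and 2, and Il1f9 above all of them in 0%-Axitinib replicate 3. Il1b stood at 8.09 and 1.91 CPM per kb. The mean level of the antagonist was above that of the agonist in both groups, but in 0%-Axitinib replicate 3 they were close (16.6 and 16.9 CPM per kb). Among the receptors the order by mean level was Il11ra1 (36.3 and 32.4), Il3ra (27.4 and 38.7), Il7r (40.1 and 23.4) and Il6st (28.4 and 32.6), and their order differed between the groups, with differences between neighbours in that order that were not tested. Il4ra stood at 13.5 and 32.5 CPM per kb.

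Signalling below the receptors was described with 33 genes of JAK, STAT, SOCS, IRAK and NF-kB signalling, of which 32 were tested. By the criterion 6 were lower and 2 higher, beside 11.8% lower and 9.54% higher among all tested genes, with a median log2 fold change of -0.32. Among the lower genes were Irak2 (log2 fold change -1.0 ± 0.20, SE), a kinase of interleukin 1 receptors, Sigirr (log2 fold change -1.76 ± 0.58, SE), an inhibitory receptor of that family, Ptpn6 (log2 fold change -0.93 ± 0.36, SE), a phosphatase that dampens cytokine signals, and the JAK pathway genes Stat5b (log2 fold change -0.73 ± 0.19, SE) and Socs4 (log2 fold change -0.78 ± 0.20, SE). Stat5b, which acts below the chain Il2rb, was measured at 76.6, 65.3 and 89.2 CPM at 0% axitinib and 49.2, 42.1 and 48.2 CPM at 3%, without overlap. Stat5a, the other STAT5 gene, did not meet the criterion. It was at 27.1, 29.1 and 25.7 CPM against 29.8, 27.3 and 26.4 CPM (log2 fold change 0.03 ± 0.17, SE). The higher genes were Socs3, an inhibitor of gp130 signalling, and Irak3, an inhibitor of IRAK signalling. Socs3 was measured at 60.6, 30.9 and 36.1 CPM at 0% axitinib and 184, 117 and 55.2 CPM at 3% (log2 fold change 1.48 ± 0.47, SE, edgeR adjusted p = 0.137), and Irak3 at 47.1, 36.2 and 32.1 CPM at 0% axitinib and 90.7, 43.4 and 87.6 CPM at 3% (log2 fold change 0.94 ± 0.32, SE, edgeR adjusted p = 0.15). The groups overlapped in both, through 3%-Axitinib replicate 3 for Socs3 and replicate 2 for Irak3. Jak1 was the most abundant gene of the list (log2 fold change -0.10 ± 0.23, SE).

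Of 14 receptor chains and ligands that lack the Il symbol, 2 were lower and 0 higher by the criterion, beside 11.8% lower and 9.54% higher among all tested genes. The lower ones were the gp130 ligands Lif (log2 fold change -1.07 ± 0.36, SE) and Osm (log2 fold change -1.61 ± 0.47, SE), and Csf1r was the most abundant (log2 fold change -0.19 ± 0.33, SE). Of 8 genes that process or release interleukin 1 family cytokines, 2 were lower, the inflammasome sensors Nlrc4 (log2 fold change -1.86 ± 0.42, SE) and Nlrp1b (log2 fold change -1.05 ± 0.44, SE). Casp4, the caspase of the non-canonical inflammasome, was higher (log2 fold change 0.80 ± 0.28, SE), and Gsdmd, the pore protein, was the most abundant (log2 fold change -0.15 ± 0.29, SE).

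Marker lists of cell types were compared between the groups as well. A gene could pass the count filter through the 0%-Axitinib samples alone, and could then hardly be called higher. This held for some of the NK cell, B cell and T cell markers tested here. Their counts of lower genes were thus favoured by the filter, and are not directly comparable with the share over all tested genes. All 8 tested NK cell markers of 11 listed were lower by the criterion (11.8% of all tested genes were), with a sum of 12.3, 34.4 and 168 in the 0%-Axitinib samples and 4.28, 4.64 and 6.7 in the 3%-Axitinib samples (CPM) and Nkg7 as the most abundant gene. Ncr1, a defining NK cell receptor, was at 2.5, 5.69 and 10.9 CPM against 0.879, 0.819 and 0.115 CPM. All 9 tested B cell and plasma cell markers of 11 were lower, with a sum of 244, 788 and 1993 in the 0%-Axitinib samples and 59.4, 41.9 and 75.1 in the 3%-Axitinib samples and Ighm as the most abundant. Of 8 tested T cell markers of 15, 6 were lower, with a sum of 28.1, 64.4 and 289 in the 0%-Axitinib samples and 7.36, 12.3 and 18.1 in the 3%-Axitinib samples and Lat as the most abundant. Cd8a was at 0.104, 2.96 and 25.7 CPM against 0, 0 and 0 CPM, and Cd3d at 0.052, 1.57 and 66.5 CPM against 0.11, 0 and 0 CPM. The lymphocyte sums were thus highest in 0%-Axitinib replicate 3 and low in every 3%-Axitinib sample. Lat was the largest part of the T cell sum in 0%-Axitinib replicate 1, at 16.8 CPM. Of the 8 tested T cell markers, 5 were lower without overlap. The groups overlapped in Cd3e (0.26, 2.09 and 23.2 CPM against 0.22, 1.18 and 0.115 CPM) and Trac (0.572, 1.1 and 10 CPM against 0.769, 1.82 and 0.289 CPM).

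All 9 mast cell markers were lower by the criterion, beside 11.8% lower and 9.54% higher among all tested genes, with a sum of 129, 198 and 325 in the 0%-Axitinib samples and 15.8, 13.4 and 68.9 in the 3%-Axitinib samples (CPM) and Tpsab1 as the most abundant. Of 10 dendritic cell markers 6 were lower, with a sum of 1539, 2340 and 595 in the 0%-Axitinib samples and 489, 408 and 899.9 in the 3%-Axitinib samples and Itgax as the most abundant. Some mast cell and dendritic cell markers also passed the count filter only through the 0%-Axitinib samples, so lower calls were favoured there too. By contrast, 0 of 13 tested macrophage markers of 14 met the criterion in either direction, with a sum of 12067, 12603 and 8821 in the 0%-Axitinib samples and 9039, 11275 and 17446 in the 3%-Axitinib samples and Lyz2 as the most abundant. Of 12 endothelial markers 10 were lower, with a sum of 1186, 839 and 1170 in the 0%-Axitinib samples and 422, 503 and 588 in the 3%-Axitinib samples and Eng as the most abundant. The share of these cells in the lower levels of Il2rb, Il2ra, Il21r, Il9r, Il27ra and Il10ra was not tested.

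Other tissue also differed between samples. Of 9 fibroblast markers 2 were higher by the criterion, beside 11.8% lower and 9.54% higher among all tested genes, with a sum of 25974, 13073 and 10186 in the 0%-Axitinib samples and 22602, 71125 and 25204 in the 3%-Axitinib samples (CPM) and Col1a1 as the most abundant. Of 13 tested skeletal muscle markers of 14, 11 were higher, with a sum of 141, 6.73 and 13.5 in the 0%-Axitinib samples and 14476, 19.6 and 7812 in the 3%-Axitinib samples and Acta1 as the most abundant, so muscle RNA was high in 3%-Axitinib replicates 1 and 3 and not in replicate 2. Of 6 tested cartilage markers of 9 listed, 4 were higher, with a sum of 358, 212 and 166 in the 0%-Axitinib samples and 308, 1235 and 473 in the 3%-Axitinib samples and Comp as the most abundant. Of 7 adipocyte markers 2 were lower and 1 higher, with a sum of 748, 704 and 922 in the 0%-Axitinib samples and 616, 309 and 416 in the 3%-Axitinib samples and Fabp4 as the most abundant. Of 3 tested keratinocyte markers of 10, 1 was lower, and Krt1 was the most abundant. The part of these tissues in the levels of Il4ra, Il1rl1, Il17rc and Il15ra was not tested. Reads of the rabbit cartilage may also have entered the cartilage marker sums, and their part was not tested.

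**Figure D3:**
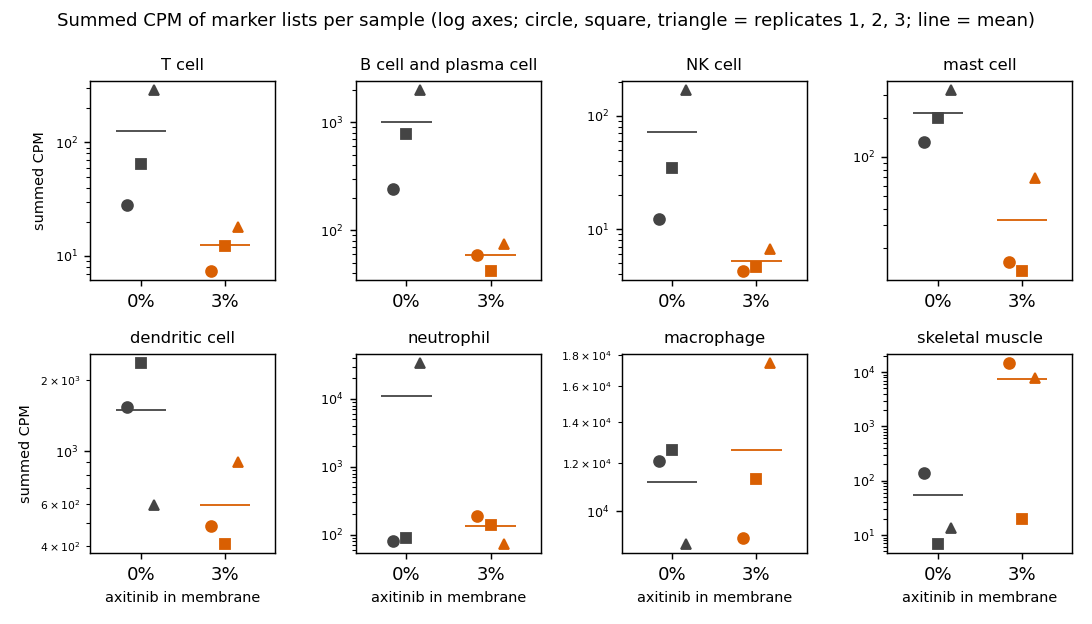
Summed CPM of cell type marker lists in each sample, on log axes that differ between panels, with a symbol for each replicate and a line at the mean. T cell, B cell, NK cell and mast cell sums are lower in every 3%-Axitinib sample, the neutrophil sum stands apart in 0%-Axitinib replicate 3, and the macrophage sums overlap.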

How the data were processed

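The authors deposited raw read counts per gene, made with fastp as the read filter and STAR (2.5.2b in the submitters' processing notes) as the aligner to GRCm38. The annotation and the strand setting are not given in the sources used here. The 4 summary lines of STAR entered neither library sizes nor tests. They held 3.84% to 48.4% unmapped, 2.71% to 6.65% multimapping, 3.17% to 6.14% no-feature and 3.55% to 5.74% ambiguous reads.

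Fits used edgeR 4.0.16 under R 4.3.3 (TMM, quasi-likelihood test, no covariates, Benjamini-Hochberg adjustment over all 15115 genes with at least 10 counts in 3 or more samples). Alternatives used DESeq2 1.42.0, limma 3.58.1, other filters and scalings, the replicate number as a block, and each sample left out. The samples within a group were taken as independent, and an exact permutation test of 3 against 3 samples cannot go below p = 0.1. Coordinates and exon lengths came from the GENCODE annotation of GRCm38, in which all 83 symbols were found. Python 3.11.15 and matplotlib 3.10.9 were used for the plots.

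Values per sample were given for members that met the criterion, the 5 ligands and 5 receptors of highest mean CPM, a set of members known from wound and foreign-body tissue, and members whose adjusted call differed between edgeR and DESeq2, 33 in all. Genes of the signalling and release lists and of the chains that lack the Il symbol were named where most abundant or called, apart from 1 gene, which is not reported here. The rule fixed beforehand also named every called marker, but of the marker lists only the most abundant gene and a few defining markers were named, and the rest were counted. Il4, Il11, Il12rb2, Il31ra, Il1rl2, Il12b, Il5ra, Il17re, Stat5a and the genes given only by their counts or as markers at 0 were added afterwards. The members and lists were chosen with earlier results of these data known.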

Additional observations from a re-analysis of the deposited data

How the results depend on the processing

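Receptors lower by the criterion numbered 8, and between 6 and 11 under every alternative, the replicate block (7) included. The alternatives tested 25 to 39 receptors and 11 to 32 ligands. Among all tested genes, 7.08% (fold change of at least 2) to 16.2% (total counts only) were lower. The share higher ran from 5.67% (fold change of at least 2) to 14.5% (without 0%-Axitinib replicate 3). Counts of different alternatives are thus not directly comparable. Ligands were less stable. Ligands lower numbered 4, but 1 with limma-voom and 0 with the replicate block, and ligands higher numbered 0, but 1 with DESeq2 and 1 with limma-voom (Il11 in both). Receptors higher numbered 4, but 2 at a fold change of at least 2 and 2 with total counts only. Members with an adjusted p of at most 0.05 numbered 0 in edgeR but 13 with DESeq2. With no filter beyond 1 count, the median log2 fold change moved from -0.19 to -0.56 for ligands and from -0.25 to -0.60 for receptors, as genes of few counts entered. The median of all genes moved from -0.03 to -0.15 with that filter. With the filterByExpr filter of edgeR the medians were -0.30 for ligands, -0.42 for receptors and -0.03 for all genes. Total counts moved the median of all genes from -0.03 to -0.16 and the calls over all genes from 11.8% lower and 9.54% higher to 16.2% and 6.43%. Il10ra, Il27ra, Il2rb, Il18bp, Il1rl1 and Il4ra kept their call in 15 of 15 alternatives, Il2ra, Il21r and Il9r in 14, Il17rc in 13, Il18r1 in 11, Il1b, Il1f9 and Il15 in 9, Il27 in 8, Il10rb in 7 and Il15ra in 3. Il18r1 lost it with limma-voom, with the replicate block and without 3%-Axitinib replicate 2 or 3. When each sample was left out in turn, ligands lower ranged from 0 to 4, ligands higher from 0 to 2, members with an adjusted p of at most 0.05 from 0 to 6, the ligand median from -0.43 to -0.028 and the receptor median from -0.44 to -0.099. The 6 adjusted calls came without 0%-Axitinib replicate 3, the 2 higher ligands without 0%-Axitinib replicate 1, the ligand median of -0.43 without 3%-Axitinib replicate 3, and the receptor medians of -0.44 and -0.099 without 3%-Axitinib replicate 1 and 0%-Axitinib replicate 2. These fits kept the genes that passed the filter over all 6 samples. They had first been run with the filter applied again to the 5 samples left, and were changed after those results had been seen. The first form, kept as an added alternative, gave 0 to 3 ligands lower, 0 to 2 ligands higher, 0 to 6 adjusted calls and a ligand median from -0.43 to 0.11, so the median changed sign without 0%-Axitinib replicate 3. In it Il9r and Il27 passed the filter in only 3 of 6 fits, with Il9r called in 3 and Il27 in 0 (6 and 2 with the genes kept), and Il15ra was called in 1 rather than 0. The other called members were called in equal numbers of fits in both forms. Among single genes that were not called, the sign changed in some of these fits, with ranges of -0.98 to 0.39 for Il16, -0.0046 to 0.21 for Il18, -0.072 to 0.39 for Il1r1, -0.10 to 0.90 for Il1r2, -0.78 to 0.36 for Il1rn and -1.24 to 0.10 for Il7r. Il33 (0.28 to 1.43) and Il1a (-0.96 to -0.039) kept their sign but varied in size. The cause was not tested. Whether the replicate numbers pair the samples is not given. The correlations of same-numbered samples were 0.19, -0.11 and -0.18, and those of other-numbered samples ran from -0.22 to 0.21. With 3 samples per group these values cannot decide it. With no filter beyond 1 count, Il12b, Il5ra, Il17re and Il1f5, which the main filter left out, were called lower from low counts, those of Il1f5 in 1 sample only.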
